A study of Mus musculus with 4 samples.

Results

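Genes that mark dormant haematopoietic stem cells (HSCs) were examined in single HSCs of mouse bone marrow. The group comprised 10 genes of the 13742 in the count table, chosen by name: Gprc5c, Cyp26b1, Rarb, Neo1, Vldlr, Mmrn1, Socs2, Ndn, Sult1a1 and Nupr1. All 10 had counts. The cells came from wild-type mice aged 8 weeks with no treatment named. They were sorted for EPCR (CD201), CD150, Kit and Sca-1 and against CD48 and lineage markers, a phenotype called ESLAM SK. All 4 libraries carried the same labels, which name CD27-negative and CD27-positive cells together. The sources used here do not give the gate of a single cell, so the libraries formed 1 group (n = 4 libraries) and the 2 gates were not compared. Whether the libraries came from separate mice is not stated, so SDs and p-values rest on the differences among these 4 libraries alone and may be technical.

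Dormant HSCs divide very rarely and hold most of the long-term repopulating activity of the marrow. Retinoic acid, the active form of vitamin A, is known to help keep HSCs in this state. It binds nuclear receptors such as the one encoded by Rarb, which act on target genes through paired copies of a short DNA motif, and it is broken down by enzymes of the CYP26 family, of which Cyp26b1 is one. Gprc5c encodes an orphan G protein-coupled receptor of a family induced by retinoic acid and has served to mark dormant HSCs. The other members are receptors (Neo1, Vldlr), a secreted protein (Mmrn1), regulators of cytokine signals and growth (Socs2, Ndn), a metabolic enzyme (Sult1a1) and a stress-induced regulator (Nupr1).

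The promoters of Rarb and Cyp26b1 are shown because these 2 genes tie the group to retinoic acid and differ in whether a match to a retinoic acid response element lies just before the start that RefSeq's window uses. For both genes this start lies inside the gene as GENCODE annotates it, which begins farther upstream. All the printed Rarb bases lie within that gene, as do the printed Cyp26b1 bases up to chr6:84593908. Promoter windows from RefSeq (assembly GRCm38.p6, 250 bases before to 50 after a start) matched 8 of the 10 members. They were searched on both strands for AGGTCA, the core motif of nuclear receptors, and for its direct repeat with a spacer of 5 bases, known as DR5, in its relaxed form. A DR5 match was found in the Rarb window alone among the members and in 642 of 32851 windows in all (1.95%). AGGTCA itself was in no member's window and in 16.3% of all windows. The Rarb sequence covers the 250 bases before the start at chr14:16575477-16575726, minus strand, and its capitals mark the DR5 match, from 53 to 37 bases before the start. The Cyp26b1 sequence covers the 250 bases before the start at chr6:84593811-84594060, minus strand, and has no capitals because no match was found in these letters.
Rarb: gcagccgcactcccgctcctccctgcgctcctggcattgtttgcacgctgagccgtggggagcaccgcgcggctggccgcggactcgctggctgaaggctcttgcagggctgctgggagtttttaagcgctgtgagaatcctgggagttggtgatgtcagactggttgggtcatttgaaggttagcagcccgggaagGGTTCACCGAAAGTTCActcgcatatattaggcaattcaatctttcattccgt
Cyp26b1: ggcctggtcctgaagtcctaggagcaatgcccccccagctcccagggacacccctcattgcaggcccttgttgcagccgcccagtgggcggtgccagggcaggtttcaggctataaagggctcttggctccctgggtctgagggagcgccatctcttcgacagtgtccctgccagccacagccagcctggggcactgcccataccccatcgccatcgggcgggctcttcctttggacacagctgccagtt

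On the genome (GRCm38, GENCODE M21), the members of the retinoic acid group were Gprc5c (chr11:114851152-114872617, plus strand), Cyp26b1 (chr6:84571414-84593908, minus) and Rarb (chr14:16430839-16819156, minus). The receptor genes were Neo1 (chr9:58874687-59036441, minus) and Vldlr (chr19:27216484-27254231, plus). Mmrn1 lay at chr6:60924976-60989378 (plus), Socs2 at chr10:95385362-95417180 (minus) and Ndn at chr7:62346569-62350262 (plus). Nupr1 (chr7:126623249-126630861, minus) and Sult1a1 (chr7:126672865-126676432, minus) lay close together on chromosome 7. All 10 are protein-coding. Sult1a1 overlaps Sgf29, and Rarb overlaps Top2b, each on the opposite strand. The sources used here do not say whether counting used strand, so reads of these pairs may not be separable.

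Of 297 cells in the table, 292 passed the filter of at least 10000 counts and 1000 genes detected (74, 75, 71 and 72 cells in libraries 1 to 4). Kept cells held from 10653 to 346876 counts, and the libraries held from 5250569 to 11207442. Transcripts of the sorted antigens were present: Ly6a (Sca-1) had a count in 271 cells, Kit in 248 and Procr (EPCR) in 222. Slamf1 (CD150) had a count in 75 of the 292 cells, and Cd48, selected against, in 2. Markers of other cell types were mixed. Of the B cell list, 5 of 7 genes were in the table, with Pax5 and Ms4a1 in 1 cell each and Cd79b in 109. Of the T or NK cell list, 5 of 8 were, with Cd3e in 1 cell and Klrb1c in 53. The stroma list (6 of 6) ran from Cxcl12 in 1 cell to Col1a2 in 28, and the endothelium list (8 of 8) from Cdh5 in 2 cells to Egfl7 in 191. The erythroid list (13 of 13) held Klf1 in 8 cells, Hbb-bs in 91 and Car2 in all 292. Of the myeloid list, 14 of 16 genes were in the table, with Elane in 1 cell, S100a8 in 72, Prtn3 in 256 and Lyz2 in 274. Summed levels over the libraries ranged from 90.8 to 111 CPM for the B cell list, 28.9 to 109 for T or NK cells, 6.30 to 39.2 for stroma and 511 to 699 for endothelium, and their part in the members' values was not tested. Runs of 8 consecutively numbered cells, in library 2 (cells 25 to 32) and library 4 (cells 9 to 16), stood apart. Their 15 kept cells had a median of 1873 genes, against 2995 in the other 277. Apoe averaged 17.7 CPM (counts scaled to a common total per cell or library) in single cells of these runs and 1655 in the rest. In the cell names, 26 cell numbers occurred in all 4 libraries.

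Levels were read as CPM of all kept cells summed per library. The members spanned about 2 orders of magnitude in this measure, with Sult1a1 and Mmrn1 at the top and Gprc5c at the bottom.

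**Figure D1:**
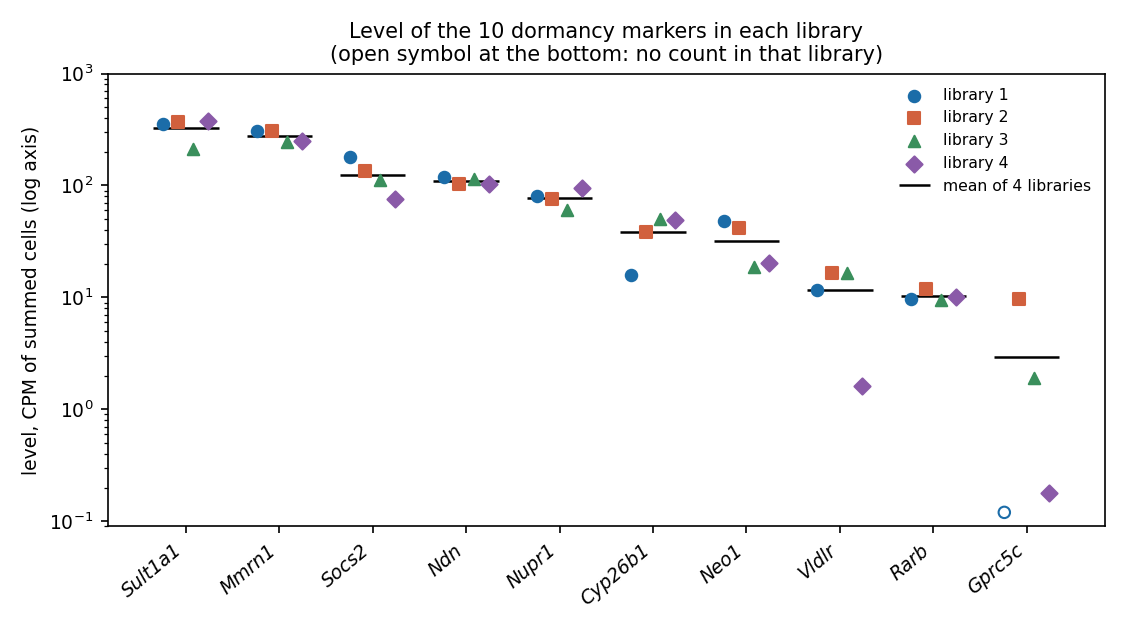
Level of each marker in the 4 libraries, in CPM of the summed cells on a log axis. Coloured symbols are libraries and lines are their means, from 328 CPM for Sult1a1 to 2.93 for Gprc5c, and the open symbol marks the library with no Gprc5c count.

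Gprc5c, the receptor used to mark dormant HSCs, was close to the limit of detection. It stood at 0, 9.64, 1.90 and 0.178 CPM in libraries 1 to 4. Only 7 of 292 cells had a count, namely 0, 3, 2 and 2 cells, and 3 of these 7 held exactly 1 count. Library 2 was the highest and all 4 were low. In library 1 a total of 0 counts allows a level of up to 0.405 CPM and a share of up to 4.05% of its 74 cells. The share over libraries was 2.40% ± 1.70 (SD, n = 4). Library 2 decided the level: the mean of 2.93 CPM fell to 0.694 without it.

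Cyp26b1, which removes retinoic acid, was found in about 1 cell in 5. Its level was 15.9, 38.4, 50.3 and 49.3 CPM in libraries 1 to 4, and its share of cells was 17.6%, 20.0%, 19.7% and 25.0%. Library 1 was the lowest in both measures, and the range of levels reached more than 3 times its value. Over the libraries, Cyp26b1 averaged 38.5 ± 16 CPM and was present in 20.6% ± 3.15 of cells (SD, n = 4). In the cells that had it the median was 94.0 CPM and the highest cell held 1436 CPM.

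Rarb, a nuclear receptor for retinoic acid, was rare, with similar levels in the 4 libraries. It stood at 9.72, 12.0, 9.52 and 10.2 CPM, with 3, 3, 5 and 4 cells. The libraries averaged 10.4 ± 1.13 CPM (SD, n = 4), and 10 of its 15 cells carried 97.3% of its counts. In libraries 1 to 4, 1 cell alone held 40.3%, 68.0%, 44.0% and 78.1% of the Rarb counts. The small SD therefore cannot show that Rarb was even between libraries.

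The 2 surface receptors behaved unlike each other. Neo1 encodes neogenin, a receptor for netrins and repulsive guidance molecules. It was measured at 48.0, 41.5, 18.9 and 20.2 CPM and was present in 27.0%, 20.0%, 16.9% and 22.2% of cells. Libraries 1 and 2 were above libraries 3 and 4 in level, without overlap, but not in share, where library 4 exceeded library 2. Vldlr, a lipoprotein receptor that binds apolipoprotein E and reelin, stood at 11.7, 16.4, 16.4 and 1.61 CPM, in 5, 8, 4 and 2 cells. Library 4 had the lowest Vldlr level by a wide margin, but these levels rested on few cells. In libraries 1 to 4, 1 cell alone held 29.9%, 36.1%, 84.9% and 55.6% of the Vldlr counts. The 95% exact binomial intervals of the Vldlr shares overlapped in all 4 libraries: library 4 had 0.338% to 9.68%, and library 2, the highest, 4.72% to 19.9%.

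Mmrn1, which encodes multimerin 1, a protein stored in platelets and endothelium, was the most widespread member. Its level was 308, 304, 245 and 249 CPM in libraries 1 to 4, and 86.5%, 80.0%, 87.3% and 87.5% of cells had a count. Libraries 1 and 2 were higher in level than libraries 3 and 4, while library 2 was the lowest in share. With 249 of 292 cells, Mmrn1 was close to ubiquitous in these HSCs, and its 10 highest cells held 18.1% of its counts.

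Socs2, a feedback inhibitor of cytokine signals through JAK and STAT proteins, stood at 179, 134, 112 and 75.5 CPM. Its share was 50%, 38.7%, 39.4% and 44.4% of cells. The levels differed more than 2-fold between the highest and the lowest library, whereas the shares had overlapping intervals. Ndn, an imprinted gene whose product restrains growth, was the most even of the commoner members, at 120, 104, 114 and 104 CPM (mean 110 ± 7.74, SD, n = 4). It was present in 50%, 42.7%, 49.3% and 45.8% of cells. Library 1 was the highest in both measures, and the 95% intervals of the shares overlapped.

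Sult1a1, a sulfotransferase of phenols and other small molecules, had the highest level of the group, at 354, 369, 211 and 378 CPM. It was present in 77.0%, 72.0%, 73.2% and 79.2% of cells. Library 3 stood below the others in level but not in share. Nupr1, a small nuclear protein induced by stress, stood at 79.9, 75.8, 60.2 and 94.3 CPM and was present in 21.6%, 24%, 21.1% and 34.7% of cells. Library 4 was the highest in both measures of Nupr1. Its counts were uneven: of 74 cells with Nupr1, 23 (31.1%) held exactly 1 count, against a median of 17.1% over genes found in a like number of cells, and 10 cells carried 54.0% of the counts.

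**Figure D2:**
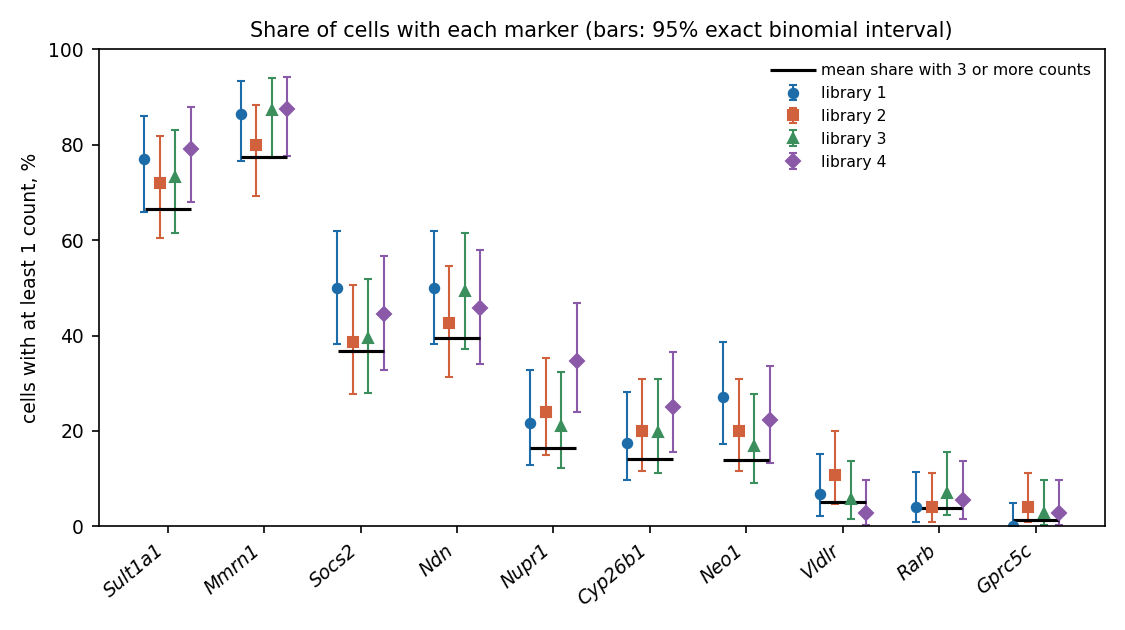
Share of cells with at least 1 count of each marker by library, in percent, with 95% exact binomial intervals, and the mean share of cells with 3 or more counts as black lines. Mmrn1 and Sult1a1 lie at or above 72.0%, Ndn and Socs2 between 38.7% and 50%, and Vldlr, Rarb and Gprc5c at or below 10.7%.

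The order of the levels was clear in some places only. In CPM, Sult1a1 (328 ± 78.6) and Mmrn1 (277 ± 34.2) overlapped between libraries, as did Socs2 (125 ± 43.2) and Ndn, Cyp26b1 and Neo1 (32.1 ± 14.8), Vldlr (11.5 ± 6.98) and Rarb, and Rarb and Gprc5c (2.93 ± 4.55). Mmrn1 was above Socs2, Ndn above Nupr1 (77.5 ± 14.0), Nupr1 above Cyp26b1 and Neo1 above Vldlr in all 4 libraries, with no overlap. Per kilobase of exonic length, Sult1a1, a short gene, reached 218 CPM per kb, against 47.1 for Mmrn1, with no overlap. On this scale Nupr1 (30.8 CPM per kb) and Ndn (29.9) overlapped, and Vldlr (1.15), a long transcript, fell below Rarb (1.97) without overlap. The libraries were enriched for 3' ends, so the value per kilobase may overstate short genes, and both scales are given.

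Asking for 3 counts in place of 1 lowered every share and kept the commonest 4 members in the same order. Mmrn1 then had 226 cells, Sult1a1 194, Ndn 115 and Socs2 107. Nupr1 had 48, Cyp26b1 and Neo1 41 each, Vldlr 15, Rarb 11 and Gprc5c 4. The largest relative losses among members with over 50 cells were those of Nupr1, Neo1 and Cyp26b1, in which 31.1%, 27.0% and 25.0% of the cells with the gene held exactly 1 count.

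In single cells that had a member, the members did not differ as much as their summed levels. The median was 334 CPM for Sult1a1, 253 for Mmrn1, 200 for Socs2, 191 for Ndn and 135 for Nupr1. It was 200 CPM for Rarb, 155 for Vldlr, 94.0 for Cyp26b1 and 64.2 for Neo1. Rarb was thus found in few cells but at a median close to that of Socs2, which was found in 126. Most members showed a lower band of cells near 10 CPM beside the main group, which is where 1 or a few counts fall at these depths.

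**Figure D3:**
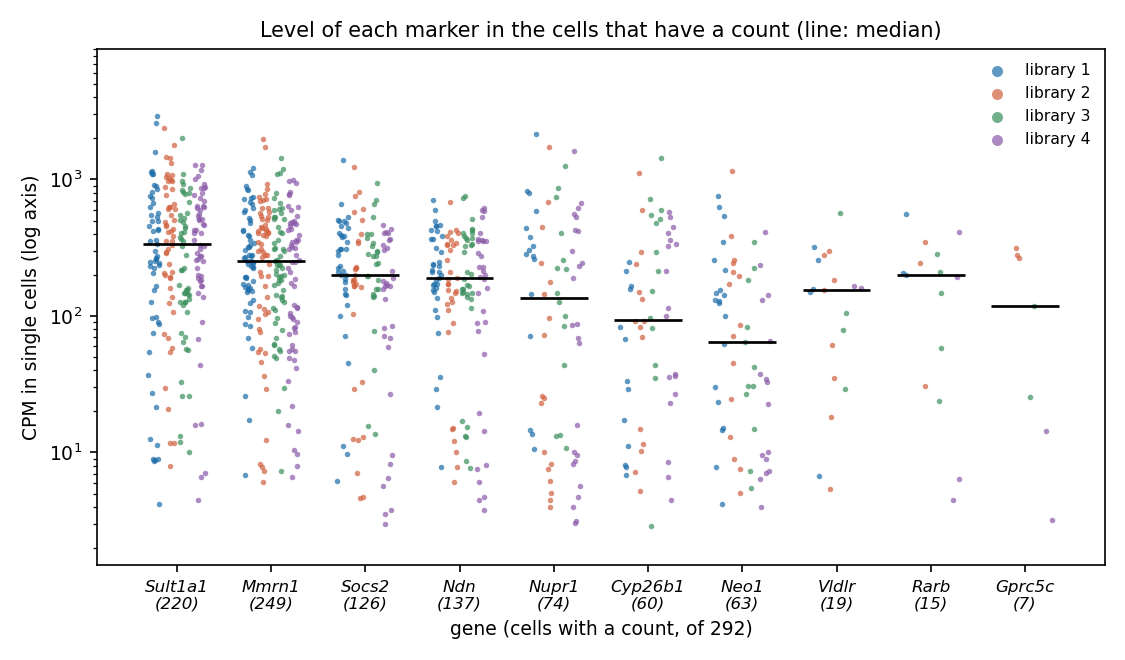
CPM of each marker in the single cells that had a count, on a log axis, with 1 point a cell coloured by library, and the median as a line. Medians run from 64.2 CPM in Neo1 to 334 in Sult1a1, and a lower band near 10 CPM is seen in most markers.

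The runs of 8 cells differed from the rest in several members. Among their 15 cells, Gprc5c, Rarb, Neo1 and Nupr1 had no count, and for 15 cells this allows a share of up to 20% of each. Ndn was found in 1, Socs2, Cyp26b1 and Vldlr in 2 each, Sult1a1 in 8 and Mmrn1 in 10. In the other 277 cells, Ndn was found in 49.1%, Socs2 in 44.8%, Neo1 in 22.7%, Nupr1 in 26.7%, Cyp26b1 in 20.9%, Rarb in 5.42%, Gprc5c in 2.53%, Sult1a1 in 76.5% and Mmrn1 in 86.3%. Vldlr went the other way, with 13.3% of the cells of the runs against 6.14% of the rest. These runs also had fewer genes per cell and a median of 62372 counts, against 96021 in the rest, and the part of depth in this was not tested. Left out, they moved no member's level or share by more than 1 SD between libraries.

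Whether the members marked the same cells was then examined in 276 cells thinned at random to 30000 counts each, since a deeper cell shows more genes. A cell carried 2.95 of the 10 members on average. No member was found in 7 cells and at least 5 in 34, with a highest number of 7. If each member had been spread over the cells of a library independently of the others, 3.02 cells with no member and 25.5 with at least 5 would be expected. The variance of the number per cell was 1.74, against 1.37 expected on independence. Without the runs it was 1.68 against 1.39, with 34 cells with at least 5 members against 26.9 expected. Asking for 3 counts, 16 cells carried at least 5 members against 10.5 expected.

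The breadth of a cell's transcriptome moved with this number. Cells with at least 5 members had a median of 2756.5 genes at the fixed depth, cells with 2 to 4 had 2634 and cells with at most 1 had 2231, of which 7 of 34 were cells of the runs. The mean Spearman rho of the number of members with genes detected was 0.284 over the 4 libraries. Its part in the co-detection was examined by partial correlation for the pairs.

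Among the 7 members found in at least 40 of these cells, 21 pairs were compared. In 19 of 21 the number of cells with both was above that expected from the shares in each library, with a median ratio of 1.08 (range 0.622 to 1.34). Asking for 3 counts, it was above expectation in 16 of 21, with a median ratio of 1.11. The median of the mean rho was 0.0533 (range -0.0822 to 0.154), and it was 0.0457 as a partial rho given genes detected. The rank correlation was positive in all 4 libraries for 5 of 21 pairs and negative in all 4 for none. All of these are descriptions of weak relations in sparse counts, with no test.

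Sult1a1 took part in 4 of the 5 highest values of rho. It stood at 0.154 with Neo1, at 0.140 with Ndn, and at 0.125 each with Cyp26b1 and Nupr1. Ndn and Sult1a1 were together in 86 cells against 79.6 expected, and rho was 0.115, 0.0830, 0.171 and 0.192 in libraries 1 to 4. This pair was positive in every library, while Neo1 and Sult1a1 were so in 3 of 4, with 37 cells against 31.7 expected. Neo1 and Ndn had the highest ratio, with 25 cells against 18.7 expected, but library 3 went the other way, with 2 cells against 3.63. Cyp26b1 and Nupr1 shared 5 cells against 8.04 expected, the lowest ratio among the commoner members, and were below expectation in 3 of 4 libraries.

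The rarest members could barely be compared. The 2 retinoic acid genes Cyp26b1 and Rarb shared 2 cells against 1.75 expected, both in library 3. Gprc5c, with 5 cells left after thinning, shared none with Cyp26b1, Rarb, Vldlr or Sult1a1. For Sult1a1, 3.45 shared cells were expected, and for the others fewer than 1. Neo1 and Vldlr shared none against 2.53 expected. Rarb and Ndn shared 8 cells against 5.03.

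**Figure D4:**
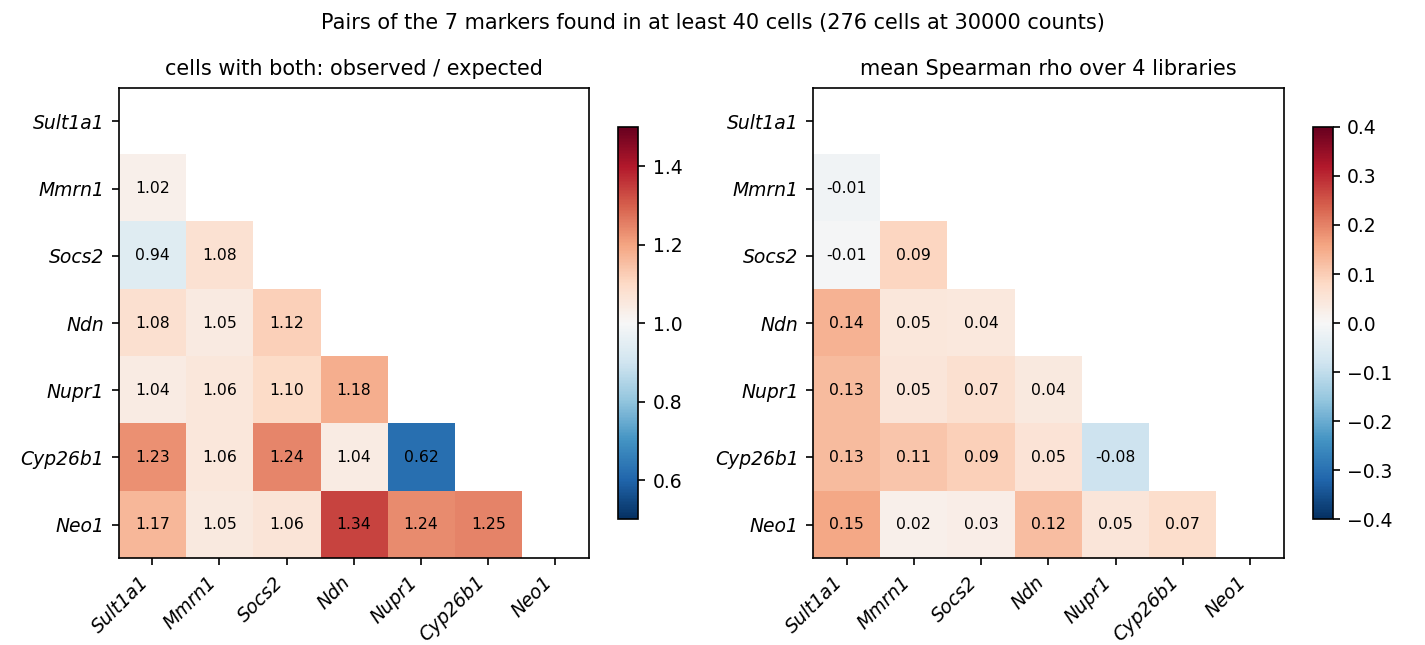
Cells with both markers of a pair as a ratio of observed to expected (left) and mean Spearman rho over the 4 libraries (right), for the 7 commoner markers in 276 cells at 30000 counts. Ratios run from 0.622 for Cyp26b1 with Nupr1 to 1.34 for Neo1 with Ndn, and no mean rho exceeds 0.154.

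Cells with and cells without a member were next compared gene by gene, on thinned counts summed per library and class, with the library as a block (edgeR's quasi-likelihood test, Benjamini-Hochberg adjustment over all genes tested, threshold 0.05). This could be done for the 5 members with at least 10 cells of each class in every library, Mmrn1, Socs2, Ndn, Sult1a1 and Nupr1. Only in the Sult1a1 comparison did a gene pass, and it was 1 of 8427 genes (0.0119%). That gene was Apoe, the lipid-carrying apolipoprotein E. Apoe was not called for Sult1a1 alone under other settings: DESeq2 also called it higher with Ndn (log2 fold change 0.41, adjusted p = 0.0198), and edgeR with Mmrn1 in the cells between the 25th and 75th percentile of genes detected (1.05, adjusted p = 0.00139). Whether the difference in Apoe itself differs between members was not tested.

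Apoe was higher in cells with Sult1a1. It stood at 1083, 812, 1278 and 1194 CPM in the cells without Sult1a1 of libraries 1 to 4, and at 1861, 1631, 1900 and 1833 CPM in the cells with it. Every value with Sult1a1 was above every value without it. Median genes detected did not separate the classes, at 2671, 2500, 2634 and 2600 with Sult1a1 and 2672, 2098, 2849 and 2750 without. The log2 fold change was 0.79 ± 0.11 (SE), with an adjusted p of 0.0100 (edgeR). The direction held without the runs, which are low in Apoe (adjusted p = 0.00510). The call was lost without library 1 (adjusted p = 0.346), library 2 (0.185) or library 4 (0.110), each with fewer samples, without the block (0.0713), on counts that were not thinned (0.314) and in the cells between the 25th and 75th percentile of genes detected (0.827), while the log2 fold change stayed between 0.72 and 0.85 in all 11 alternatives.

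None of the other members passed in the Sult1a1 comparison. Nupr1, at 37.7, 5.80, 44.4 and 74.5 CPM without and 133, 70.2, 85.5 and 90.6 CPM with Sult1a1, was higher with it in every library (log2 difference 1.54 ± 0.50, adjusted p = 0.705, edgeR). Ndn was also higher in 4 of 4 libraries (0.77 ± 0.34, adjusted p = 0.925) and Socs2 lower in 4 of 4 (-0.46 ± 0.30, adjusted p = 0.974). Mmrn1 was level, at 0.02 ± 0.21. The median over the 6 members tested was 0.85, against 0.10 over all 8427 genes. Cyp26b1 (2.56 ± 1.13) had no count without Sult1a1 in libraries 2 and 4. A rare member can pass the filter on low counts through 1 class alone, so this median cannot show that members moved together. Over 24 other dormancy and quiescence genes the median was 0.44, with Apoe the 1 gene that passed, and over 13 genes of the retinoic acid pathway it was 0.41 with none passing.

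No gene passed by edgeR for Mmrn1, Socs2, Ndn or Nupr1 (0% of 8309, 8563, 8452 and 8341 genes). At an unadjusted p under 0.05 the counts were 273, 324, 386 and 321 genes, and DESeq2 called 0, 0, 3 and 1. On simulated data for the Socs2 comparison, with 8213 genes, 15.1% of genes changed by 1 on the log2 scale and 59% of those changed by 2 were recovered, so that changes of 2-fold would mostly have been missed.

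The values of the other members in these comparisons were as follows. With Socs2, Cyp26b1 stood at 17.1, 73.1, 57.7 and 124 CPM, and without it at 16.2, 15.9, 48.2 and 15.6 CPM. Cyp26b1 was thus higher with Socs2 in 4 of 4 libraries, by little in library 1 (log2 difference 1.37 ± 0.56, adjusted p = 0.999, edgeR). Nupr1 was higher with Socs2 in 4 of 4 as well (0.75 ± 0.35). With Nupr1, Cyp26b1 was lower in 4 of 4 libraries (-1.94 ± 0.91, adjusted p = 1.00). With Ndn, Sult1a1 was higher in 4 of 4 (0.31 ± 0.17), and with Mmrn1, Ndn was (0.84 ± 0.51). The median over the other members was 0.41 with Mmrn1 (7 members tested), 0.20 with Socs2 (6), 0.42 with Ndn (8) and -0.20 with Nupr1 (8), against 0.26, -0.02, -0.02 and -0.15 over all genes. The filter on low counts let in different members each time, and rare ones can pass through 1 class. Rarb, for example, had no count with Nupr1 in libraries 2, 3 and 4 (-2.80 ± 1.81). These medians therefore cannot show whether members moved together.

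Genes most like a member were sought by rho over cells within libraries, among 4538 genes found in at least 20% of thinned cells, for the 4 members that reach this share. Sult1a1 had the highest values, with Coq8a, which acts in coenzyme Q synthesis (0.350), Apoe (0.347) and Glipr1l1 (0.278). Apoe was even over libraries, at 0.281, 0.396, 0.310 and 0.400. The lowest were Rnase6 (-0.261), Nsd3 (-0.224) and Ankrd11 (-0.219). For Mmrn1 they were Lamp2, a lysosomal membrane protein (0.267), Maea (0.235) and Pmpcb (0.221), against Rnf216 (-0.236), Mrps14 (-0.204) and Wipi2 (-0.202).

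For Socs2 the highest were Arl2 (0.239), Ccnh (0.224) and Marc2 (0.224), and the lowest Arpc3 (-0.222), Zfp950 (-0.222) and Srgn (-0.207). For Ndn they were Selenom (0.255), Supt16 (0.253) and 1500011B03Rik (0.237), against Egln2 (-0.241) and Psph (-0.184). The extremes of 4538 values are named here, and between 12.8% and 15.8% of these genes had the same sign in all 4 libraries. With only 4 libraries, some genes share a sign by chance, and how many was not computed. That shared sign was also required for a gene to be named, so it is no separate support. None of these 4 members was among the genes named for another of them. The rarer members fell below 20% of thinned cells and could not appear, so this says nothing about them.

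Summed lists of genes gave the highest values with Sult1a1. Its rho was 0.376 with the sum of stress response and autophagy genes and 0.332 with the sum of the other dormancy and quiescence genes, each positive in 4 of 4 libraries. Without Apoe, the dormancy sum gave 0.236. The lipoprotein and lipid sum, which also holds Apoe, gave 0.339. Among single genes of the stress and dormancy lists, Apoe stood at 0.347, Cavin2, a caveola protein, at 0.270, and Map1lc3b, an autophagosome protein, at 0.262. Hspa5 (0.224), Trib3 (0.215), Fhl1 (0.209) and Vwf (0.195) were lower. Other genes of the same lists were near 0 or negative, such as Btg2 (0.0220), Ly6a (-0.00230), Zfp36l2 (-0.0964) and Gclm (-0.102). With the lymphoid and multipotent progenitor sum, Sult1a1 stood at -0.227, Neo1 at -0.213 and Cyp26b1 at -0.178, each negative in 4 of 4. Vldlr (0.121), Rarb (0.0293) and Mmrn1 (0.0202) were positive on average. That list holds Cd27 and Cd34, with which Sult1a1 had a rho of -0.174 and -0.217, so it is not separate from the Cd27 values below. The dormancy sum gave 0.206 with Cyp26b1 and 0.212 with Neo1, each positive in 4 of 4. Without Apoe it gave 0.182 and 0.150, each still positive in 4 of 4. Apoe alone stood at 0.112 with Cyp26b1 and 0.209 with Neo1. With Mmrn1, Socs2, Ndn and Nupr1 the full sum gave 0.00435, -0.0132, 0.0403 and 0.0233, with signs that differed between libraries. The members therefore differed in how they followed the wider list.

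The retinoic acid pathway around Cyp26b1, Rarb and Gprc5c was partly present. Of 30 listed genes, 19 were in the table, and their sum was 923 ± 93.9 CPM (SD, n = 4). Aldh1a1, which makes retinoic acid from retinal, stood at 49.0 ± 19.8 CPM in 71 cells, and Rdh10, which makes retinal, at 39.0 ± 13.6 CPM in 65. Among the receptors, Rarg stood at 21.1 ± 12.3 CPM in 49 cells and Rara at 6.30 ± 6.44 in 15, beside the 15 cells of Rarb. Cyp26a1, the relative of Cyp26b1, had a count in 1 cell. The sum of the list had a rho of 0.0630 with Cyp26b1 and 0.0683 with Rarb, each positive in 3 of 4 libraries.

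Partners of other members were also read. Of the ligands of Vldlr, Apoe stood at 1600 ± 55.0 CPM and Reln at 1.99 ± 3.45, in 3 cells. Of 16 listed genes of netrin and RGM (repulsive guidance molecule) ligands and receptors, 9 were in the table, without Ntn1, Ntn4 and Dcc. The ligand genes Rgma and Rgmb were found in 1 cell and 3 cells. Bmpr2, a receptor for bone morphogenetic proteins, stood at 29.4 ± 7.74 CPM in 50. Among the relatives of Socs2, Socs1 stood at 30.3 ± 5.28 CPM in 47 cells, Socs3 at 32.3 ± 12.1 in 49 and Cish at 26.7 ± 6.39 in 116. Of 22 genes of cytokine signalling, 20 could be tested in the Socs2 comparison, and none passed by edgeR or DESeq2, with 2 at an unadjusted p under 0.05.

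Because the sort was by CD27, the members were last set beside the Cd27 transcript. A cell without a Cd27 count is not a CD27-negative cell, and no cell was placed in a gate. Of 276 thinned cells, 148 had Cd27. Cyp26b1 was found in 5.56%, 2.44%, 17.1% and 8.33% of the cells with Cd27 in libraries 1 to 4, and in 19.4%, 24.1%, 17.2% and 26.5% of those without. Its share was lower with Cd27 in 4 of 4 libraries, but in library 3 the 2 values were almost equal. By level it was lower with Cd27 in 3 of 4, as library 3 held 53.3 CPM with Cd27 and 50.6 CPM without. Mean rho was -0.210 for Cyp26b1, negative in 4 of 4.

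Sult1a1 was found in 58.3%, 58.5%, 68.6% and 72.2% of cells with Cd27 and in 77.8%, 79.3%, 75.9% and 79.4% without. Every library with Cd27 was below every library without it. Socs2 was found in 36.1%, 36.6%, 34.3% and 27.8% with Cd27 and in 61.1%, 37.9%, 48.3% and 44.1% without, again without overlap but by a small gap in library 2. By level Socs2 was lower with Cd27 in 3 of 4 libraries, as library 2 held 114 CPM with Cd27 and 106 CPM without. Neo1 was at 9.70% ± 5.90 with and 23.9% ± 9.86 without (SD, n = 4), lower in 3 of 4 libraries. Vldlr went the other way, at 9.27% ± 4.99 with and 1.60% ± 1.86 without, on 16 cells in all. Mmrn1, Ndn, Rarb and Nupr1 had mean rho with Cd27 of -0.0488, -0.0986, 0.0460 and -0.0248.

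The number of members per cell had a mean rho of -0.267 with Cd27. The runs were rich in Cd27, at 418 CPM in single cells against 190 in the rest. Without them, Cyp26b1 averaged 16.8 CPM over the libraries with Cd27 against 69.9 without, and Sult1a1 249 against 430. In the gene comparisons Cd27 was lower with Socs2 (log2 difference -0.88 ± 0.25) and with Ndn (-0.71 ± 0.22) in 4 of 4 libraries each. It did not pass in either (adjusted p = 0.999 and 0.971, edgeR). With Sult1a1 (-0.12 ± 0.23), Nupr1 (-0.45 ± 0.36) and Mmrn1 (0.10 ± 0.27), its direction differed between libraries. In library 4, Cd27 stood at 178 CPM without Sult1a1 and at 201 CPM with it.

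**Figure D5:**
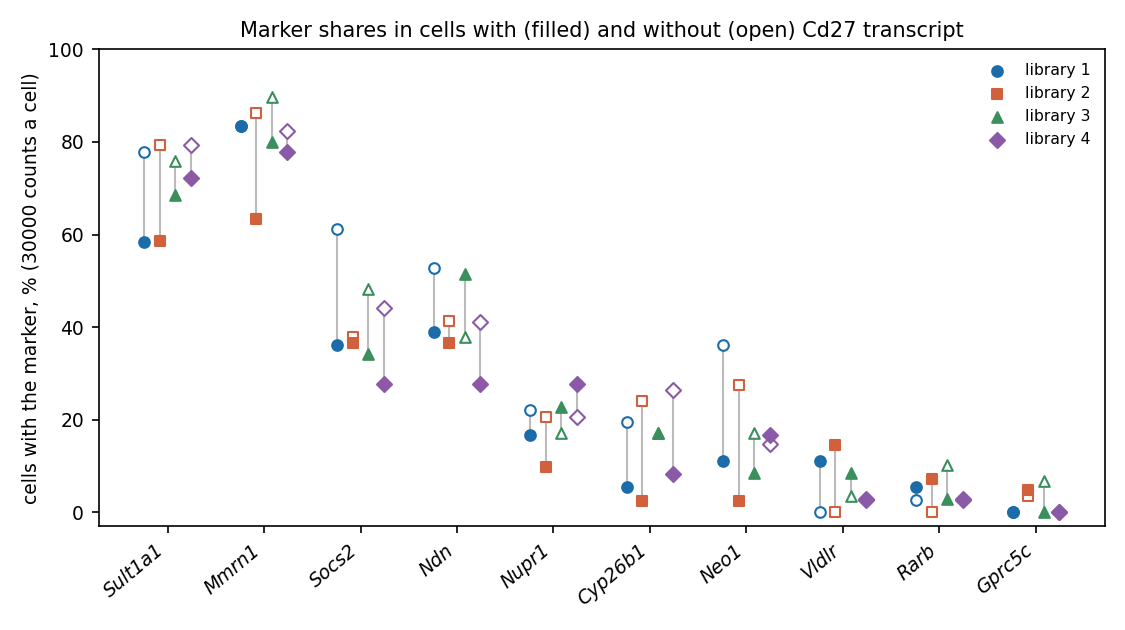
Share of thinned cells with each marker among cells with (filled) and without (open) a Cd27 count, in percent, 1 symbol a library. For Sult1a1 all filled symbols (58.3% to 72.2%) lie below all open ones (75.9% to 79.4%), and for Vldlr the order is the opposite in 3 of 4 libraries.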

How the data were processed

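Single HSCs were sorted into tubes, barcoded with the oligo-dT primer, amplified by PCR, pooled into 4 libraries and enriched for 3' ends (STRT-seq), per the labels' protocols. The authors deposited a table of unnormalized whole-number counts, with genes in rows and cells in columns. The submitters' processing notes name Trimmomatic 0.36, HISAT2 2.1.0, HTSeq 0.9.1 and GRCm38. Nothing in the sources used here says whether reads were collapsed by molecular identifier. The median nonzero count was 18, and 14.1% of nonzero counts were 1, so a count is not 1 molecule, and intervals and floors cover counting error only.

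Cells with at least 10000 counts and 1000 genes were kept, and no doublet caller was run. CPM are counts of kept cells summed per library and scaled by its total. Shares carry 95% exact (Clopper-Pearson) intervals, and a count of 0 a limit of 3 counts or 3 cells. Each cell was thinned once to 30000 counts (seed 1), and 16 shallower cells were left out (2, 5, 7 and 2). Expected co-detection multiplied the shares within each library. Spearman rho was computed within libraries and averaged, as a description without a p. Cells of 1 library are not replicates, so splits of cells were tested on sums per library with edgeR 4.0.16 (R 4.3.3), TMM factors, filterByExpr, the library as a block because both sums come from it, and Benjamini-Hochberg adjustment at 0.05. DESeq2 1.42.0 was an alternative. Other alternatives changed the filter, block, thinning, counts asked for and libraries. The script was tested on simulated data.

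The members and gene lists were chosen with earlier results of these data known. The rule for named genes took the members, genes past the threshold and the 3 highest and 3 lowest rho per member. Runs of 8 cells, the cells between the 25th and 75th percentile of genes detected, and the genes of lists and relatives named for single values were chosen after their values were seen. Some genes that the rule or the lists would name are not reported here.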

Additional observations from a re-analysis of the deposited data

Results flagged for a closer look

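Of 20 groups of 4 library values checked (level and share of each member), 2 held a library far from the other 3, by a gap larger than Dixon's 95% limit for 4 values. Chance gives this in about 1 of 20 groups. For the level of Sult1a1 the gap was 0.854 of the range, with library 3 at 211 CPM and the others between 354 and 378. Library 3 also had the lowest total, at 5250569 counts. For the share of cells with Mmrn1 the gap was 0.865 of the range, with library 2 at 80.0% and the others between 86.5% and 87.5%. The exact interval of library 2, 69.2% to 88.4%, includes all of these shares.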

How the results depend on the processing

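Levels of the 10 members moved by less than 1 SD between libraries in all 70 combinations of member and alternative, and shares in 58 of 70. For Gprc5c this says little, since its SD (4.55 CPM) exceeds its mean (2.93), which was 0.694 without library 2. The other 12 were 7 members at 3 or more counts and 5 at 30000 counts a cell. The median ratio of co-detection was 1.08, and 1.11 at 3 or more counts, 1.06 without the runs. Pairs above expectation numbered 19 of 21, and 16 at 3 or more counts, 19 without the runs. The median rho was 0.0533, and 0.0843 on counts that were not thinned.

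The calls of the gene comparisons depended on the setting. With DESeq2 there were 3 for Ndn, Apoe among them, 2 for Sult1a1 and 1 for Nupr1. With no filter on low counts there were 1 for Mmrn1, 1 for Socs2, 4 for Ndn, 15 for Sult1a1 and 3 for Nupr1. At 3 or more counts there were 1 for Socs2, 2 for Ndn and 4 for Sult1a1. On counts that were not thinned there were 1 for Socs2 and 0 for Sult1a1. In the cells between the 25th and 75th percentile of genes detected, chosen after seeing the data, there were 4 for Mmrn1, Apoe among them, and 0 for Sult1a1, where Apoe had an adjusted p of 0.827 (edgeR). With each library left out in turn the counts ran from 0 to 1 for Mmrn1, Ndn and Nupr1, from 0 to 3 for Sult1a1, and were 0 for Socs2. Without the replicate block Sult1a1 had 0 calls, and the pairing of the 2 sums of a library changed no other count. Apoe remained the call of the Sult1a1 comparison with DESeq2, with no filter, at 3 or more counts, without library 3 and without the runs. Fewer samples or cells entered the fits without a library and the percentile fit. For the other changes the cause was not tested.

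Members with fewer than 10 cells of a class in a library could not be tested, and the precision is that of 4 libraries of unstated origin.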
